A study of Mus musculus with 6 samples.

Results

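The DNA replication machinery described here is a list of 45 genes whose products recognise and license origins, unwind DNA, copy it, and restore chromatin on the copies. Its members were taken from the deposited expression table by gene symbol, and all 45 were found among the 17030 genes listed. The table comes from SCC7, a mouse squamous cell carcinoma line, and compares 3 untreated samples (control 1 to 3) with 3 samples that received radiotherapy at 9 Gy (irradiated 1 to 3). All were kept in high-glucose medium with serum, the dose stands in a treatment protocol that the labels repeat for all 6 samples, and the controls are those with the treatment label none. Every sample has the time label day 0, so when cells were harvested after irradiation is not given. The labels do not say whether the samples within a group are separate cultures, so the p-values cover the spread among 3 samples that may be technical repeats. The unit is FPKM, fragments scaled by transcript length and by the total of the library, so levels of different genes can be set side by side, but the read depth of each library is unknown.

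Replication starts at origins bound by the origin recognition complex (ORC). CDC6 and CDT1 load the MCM2-7 helicase there in G1, and geminin blocks CDT1 once S phase has begun. CDC45 and the GINS complex turn the loaded helicase into the active fork motor, polymerase alpha-primase lays down primers, polymerases epsilon and delta extend them on the PCNA clamp, and RPA covers single-stranded DNA. Many of these genes are textbook targets of E2F transcription factors and are expressed around the G1/S transition, and the machinery is abundant in cycling tumour cells.

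The E2F letters that such genes are known for are shown first, for the members that hold them within 150 bases before a listed start in a stretch outside any RefSeq gene. RefSeq promoter windows on GRCm38.p6, from 250 bases before to 50 after a start, were matched for 37 of the 45 members. Each window was searched on both strands for the letters TTTCCCGC, TTTGGCGC, TTTCGCGC and TTTGCCGC. At least 1 of them was found in 16 of the 37 members (43.2%), in 9 of 34 matched genes of a second list of replication genes (26.5%), and in 445 of 8952 matched genes among all genes tested (4.97%). A match describes the letters only. The members shown are Gins3 (chr8:95633409-95633558, plus strand), Mcm6 (chr1:128359706-128359855, minus strand) and Rfc3 (chr5:151651209-151651358, minus strand), and the 150 bases before their starts are printed 5′ to 3′ in the direction of the gene, with E2F letters of either strand in capitals. The stretch of Pold2 (chr11:5878257-5878406, minus strand) is shown because Pold2 was the member that passed the test; no E2F letters were in its window, and the capitals mark a CCAAT box read on the opposite strand.
Gins3: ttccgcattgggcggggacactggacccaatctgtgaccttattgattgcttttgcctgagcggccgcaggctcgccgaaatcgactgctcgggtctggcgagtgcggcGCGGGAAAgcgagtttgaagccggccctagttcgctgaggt
Mcm6: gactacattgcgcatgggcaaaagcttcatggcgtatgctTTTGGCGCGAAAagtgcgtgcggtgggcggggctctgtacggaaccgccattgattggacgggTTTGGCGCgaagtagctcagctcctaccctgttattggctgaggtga
Rfc3: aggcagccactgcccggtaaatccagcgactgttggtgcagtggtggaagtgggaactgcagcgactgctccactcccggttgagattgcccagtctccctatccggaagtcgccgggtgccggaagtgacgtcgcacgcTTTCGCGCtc
Pold2: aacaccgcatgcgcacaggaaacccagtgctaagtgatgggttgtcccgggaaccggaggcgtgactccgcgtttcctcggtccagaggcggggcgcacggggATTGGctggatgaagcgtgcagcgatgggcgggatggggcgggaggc
The Gins3 match begins 41 bases before the start and that of Rfc3 10 bases before it. Mcm6 holds 3 matches, which begin 110, 106 and 47 bases before the start; the first 2 overlap and form 1 run of capitals. CCAAT letters were in the windows of 24 of the 37 members (64.9%, against 44% of all genes tested), GGGCGG, the GC box, in 29 (78.4% against 70.1%), and TTTGAA, the core of the CHR element of mitotic genes, in 5 (13.5% against 14.5%).

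Few replication genes passed the test between irradiated and control cells. All 45 passed the filter of at least 1 FPKM in at least 3 samples, and 1 of them, Pold2, was called lower, with none called higher. Called means an adjusted p below 0.05 in limma's linear model on log2(FPKM + 1), with Benjamini-Hochberg adjustment over the 11103 genes tested, of which 12% were called in either direction, 9.24% higher and 2.77% lower. In RNA from bulk cells, fewer cells in a phase of the cycle and less RNA per cell cannot be told apart. At an unadjusted p below 0.05, 16 members passed, 11 lower and 5 higher, against 38.3% of all genes tested (11.1% lower and 27.2% higher). The estimates of 30 members (66.7%) lay below 0 and those of 15 above it, while 37.2% of all genes tested lay below 0. The median log2 fold change of the members was -0.12, against 0.17 for all genes tested, and no member reached a 2-fold difference on this scale, against 8.25% of all genes. After trimmed-mean scaling the 2 medians were -0.28 and 0.03, and after quantile normalization -0.12 and -0.02. The members' median thus lay below that of all genes under each scaling, by 0.29, 0.31 and 0.10. The median of all genes also depended on the filter, at 0.12 with 5 FPKM and 0.056 with none, while that of the members stayed at -0.12. The members were more abundant, with a median level of 38.2 FPKM against 14.2 for all genes tested.

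The 6 libraries were not equally spaced, and this bears on every member. The median SD of a member on the log2(FPKM + 1) scale was 0.26 among controls and 0.09 among irradiated libraries (0.30 and 0.08 for all genes tested), although the test assumes the same variance in both groups. For 30 of 45 members control 3 lay closer to the irradiated mean than to the mean of controls 1 and 2, as it did for 69.4% of all genes. The sum of FPKM was 693960 to 982550 in controls and 652690 to 663490 in irradiated libraries, and the members summed to 2039.7 to 2462 FPKM in controls and 1766 to 1978 in irradiated libraries. As a share of each library's sum the members took 0.280%, 0.233% and 0.294% in controls 1 to 3 and 0.288%, 0.266% and 0.30% in irradiated libraries 1 to 3, so the shares overlapped. The median difference of the irradiated mean from controls 1, 2 and 3 taken singly was -0.21, -0.09 and -0.05 for the members. For all genes tested it was 0.18, 0.29 and 0.07. Without control 3, limma called 26 members (7 higher, 19 lower), where it called 69.1% of all genes (45.8% higher and 23.3% lower). Without any other single library it called no member, where it called 0.516% to 4.96% of all genes. In those fits 7 to 14 members had an unadjusted p below 0.05, and the share of all genes at that threshold was not computed. Of the fixed markers, the simple-epithelium keratins Krt8 and Krt18 reached 1361 and 528 FPKM and Krt18 was called lower in irradiated libraries (adjusted p = 0.0261), while the squamous and epithelial markers Krt5, Krt14, Krt6a, Trp63, Epcam and Cdh1 were at or below 1.1 FPKM in every library. The 10 squamous and epithelial markers summed to 702 to 1896 FPKM in controls and 487 to 499 in irradiated libraries, the 6 mesenchymal markers to 2491 to 5359.5 and 2521 to 2709.9 FPKM, most of it Vim (2410.4 to 5293 and 2443 to 2629), and the 6 leukocyte markers in the table to 2.14 to 4.54 and 4.08 to 5.77 FPKM. Col1a1 was called higher, at 18.9 ± 0.872 FPKM in controls and 45.9 ± 6.58 in irradiated libraries (SD, n = 3 each, limma adjusted p = 0.00474). Acta2, at 0.750 to 1.09 and 1.53 to 5.08 FPKM, was not called. Col3a1 (33.4 to 45.2 and 27.66 to 32.35 FPKM) and Cdh2 (0.95 to 1.98 and 0.6 to 0.71) lay lower in irradiated libraries without overlap. Col3a1 was not called, and Cdh2 missed the filter. Of the 5 mesenchymal markers tested, 3 had estimates below 0 and 2 above it, with a median of -0.18. The part of these markers in the results on replication genes was not tested. The vascular markers did not pass 0.58 FPKM, and the leukocyte marker Ptprc was at 0 in the controls and at most 0.03 in irradiated libraries.

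**Figure D1:**
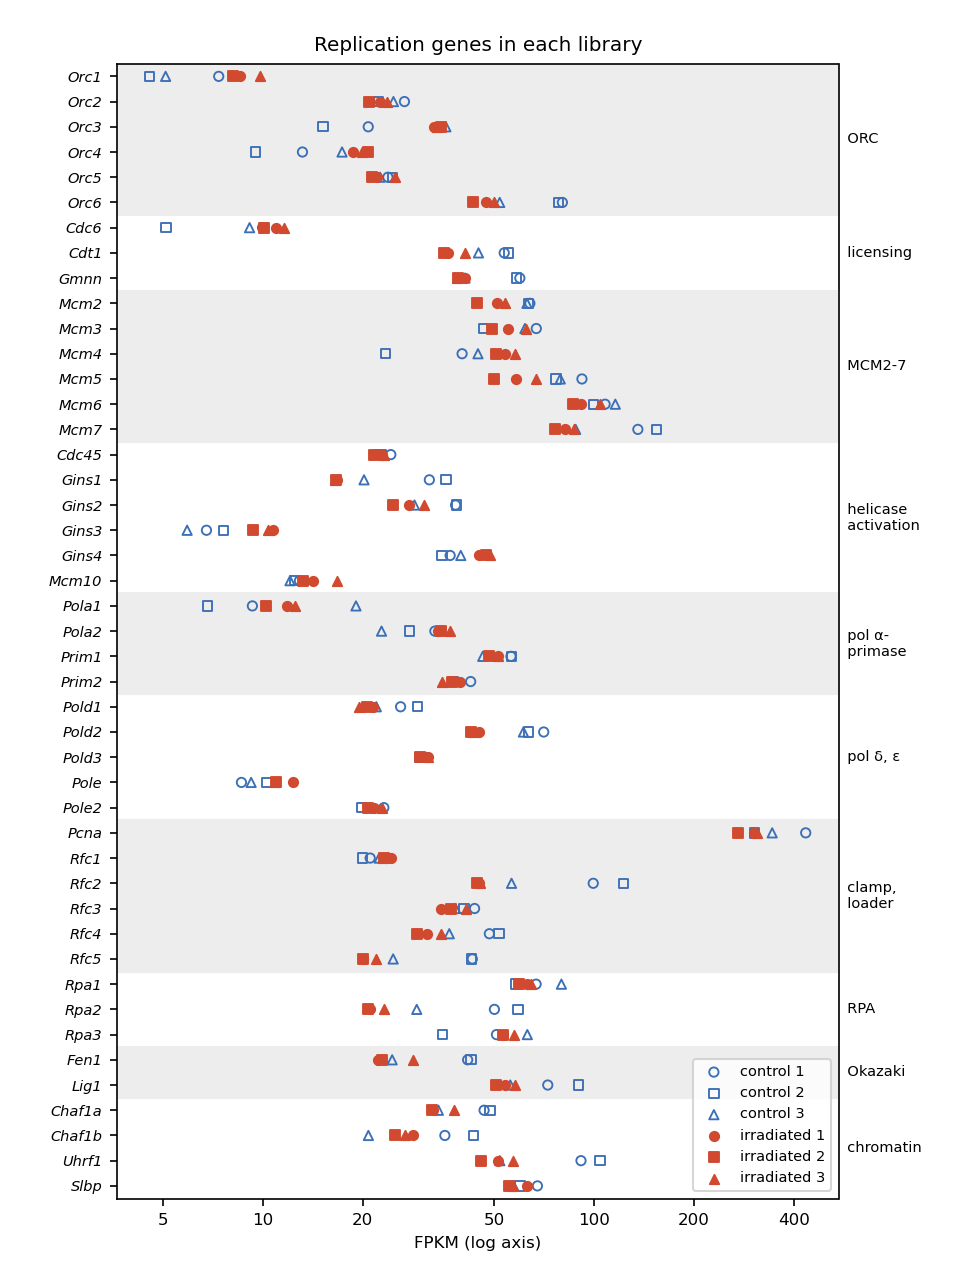
FPKM of each of the 45 replication genes (log axis) in 3 control libraries (open blue) and 3 irradiated libraries (filled red), with the library number given by the marker and role groups shaded. Irradiated libraries lie close together, while controls 1 and 2 often lie apart from control 3, as for Rfc2, Rpa2 and Uhrf1.

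Subunits of the origin recognition complex had estimates of both signs. Orc6, a small subunit and the most abundant of the 6, measured 80.1, 78.05 and 51.8 FPKM in controls 1 to 3 and 47.1, 43.2 and 49.7 in irradiated libraries 1 to 3. Every irradiated value lay below every control, with control 3 near them (log2 fold change -0.55, SE 0.19, limma adjusted p = 0.0914). Orc1, the subunit whose level is set by the cell cycle and the least abundant, measured 7.36, 4.56 and 5.09 FPKM in controls and 8.54, 8.15 and 9.82 in irradiated libraries. Here all irradiated values lay above all controls (0.58, SE 0.19, adjusted p = 0.0791). Orc4, a core subunit of the ATPase family, also had groups that did not overlap, at 9.51 to 17.3 against 18.8 to 20.8 FPKM (adjusted p = 0.102). Quantile normalization gave estimates of 0.22 for Orc1 and 0.36 for Orc4, and without control 2 that of Orc4 was 0.37. Orc3 ranged from 15.2 to 35.7 FPKM in controls, a span that took in the irradiated values of 32.8 to 34.4. Orc2 and Orc5 had estimates of -0.13 and -0.05. None of the 6 was called by limma, and 3 had an unadjusted p below 0.05, as did 38.3% of all genes tested.

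The loading factors and their inhibitor were not called either. Of the 3, 1 (Cdt1) had an unadjusted p below 0.05, against 38.3% of all genes tested. Cdc6, the ATPase that brings MCM2-7 to ORC, measured 5.10 to 9.98 FPKM in controls and 10.1 to 11.6 in irradiated libraries, so that the irradiated values lay just above the highest control (0.44, SE 0.24, adjusted p = 0.21). The Cdc6 estimate was 0.17 without control 2, which held the lowest value, 0.12 after quantile normalization and 0.25 after the length and GC correction. Cdt1, its partner in loading (chromosome 8, 122568015 to 122573130), measured 53.5, 55.1 and 44.7 FPKM in controls and 36.3, 35.3 and 40.6 after irradiation, with all irradiated values below all controls. Its log2 fold change was -0.44 (SE 0.14, adjusted p = 0.0714), and -0.19 after the length and GC correction (adjusted p = 0.217). Gmnn, which encodes geminin, the inhibitor of CDT1, measured 59.6, 58.4 and 40.7 FPKM in controls and 40.8, 38.8 and 38.6 in irradiated libraries. Control 3 lay within the irradiated range for Gmnn, so the groups overlapped (-0.40, adjusted p = 0.138). The Gmnn estimate was -0.096 after the length and GC correction (adjusted p = 0.489).

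Among the 6 subunits of the MCM2-7 helicase, 5 had estimates below 0 and Mcm4 an estimate above 0. Mcm5 measured 91.8, 76.7 and 78.95 FPKM in controls and 57.9, 49.8 and 66.7 in irradiated libraries (-0.50, SE 0.15, adjusted p = 0.0703). The groups did not overlap, and Mcm5 was called lower after trimmed-mean scaling (adjusted p = 0.0475) and after correction for transcript length and GC content (0.0444), within a range of 0.00989 to 0.253 over all alternatives. Mcm7 was the most abundant subunit in controls 1 and 2, and measured 135, 154 and 87.8 FPKM in controls against 81.6, 76.2 and 86.7 in irradiated libraries. Control 3 lay just above the irradiated values (adjusted p = 0.107). Mcm2 had the tightest controls of the 6, at 62.6 to 63.9 FPKM, with 44.3 to 53.6 after irradiation (adjusted p = 0.0917). Mcm4 measured 23.4 to 44.6 FPKM in controls and 50.5 to 57.6 in irradiated libraries, without overlap (0.62, SE 0.24, adjusted p = 0.113), and its estimate was 0.35 without control 2, the lowest control. Mcm3 and Mcm6 had overlapping groups and estimates of -0.06 and -0.20. In irradiated libraries the 6 subunits ordered from Mcm6 (mean 93.8 FPKM) and Mcm7 (81.5) to Mcm2 (49.5), and the 4 from Mcm5 down (58.2, 55.4, 53.99 and 49.5) had ranges that overlapped one another.

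Among the genes that activate the loaded helicase, the 4 subunits of GINS had estimates of both signs. Gins1 measured 31.8, 35.7 and 20.2 FPKM in controls and 16.7, 16.7 and 16.5 in irradiated libraries, where its values hardly varied (-0.74, SE 0.21, adjusted p = 0.0642). Gins3 measured 6.76, 7.60 and 5.91 FPKM in controls and 10.7, 9.35 and 10.4 in irradiated libraries (0.53, SE 0.14, adjusted p = 0.054). Both had groups that did not overlap, Gins1 with irradiated values below the controls and Gins3 with irradiated values above them, and Gins3 missed the threshold narrowly. Limma without its trend and robust options called Gins3 (adjusted p = 0.049), as did the length and GC correction (0.0458), but its estimate was 0.21 after quantile normalization (adjusted p = 0.456) and 0.39 after trimmed-mean scaling (0.129), in a range of 0.00684 to 0.456. Gins4, the most abundant of this group, measured 36.7, 34.7 and 39.6 FPKM in controls and 44.8, 47.03 and 48.6 in irradiated libraries, all above the controls (adjusted p = 0.0907). Gins2 had an estimate of -0.33 with overlapping groups. Cdc45, the helicase cofactor, had the highest p of the 45 members, at 21.7 to 24.3 FPKM in controls and 21.7 to 23.2 in irradiated libraries. Mcm10, which acts at origin firing, had an estimate of 0.21 (adjusted p = 0.265), which was -0.0099 after quantile normalization.

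The polymerases gave the called member. Pold2, the second subunit of polymerase delta (NCBI gene 18972, chromosome 11, 5872180 to 5878256), measured 70.4, 63.4 and 61.1 FPKM in controls 1 to 3 and 45.04, 42.5 and 42.99 in irradiated libraries 1 to 3. It fell from 64.96 ± 4.83 to 43.5 ± 1.34 FPKM (SD, n = 3 each), with every irradiated value well below every control and control 3 beside control 2. The log2 fold change was -0.57 (SE 0.12, limma adjusted p = 0.0327). The call was lost without control 1 (adjusted p = 0.136), control 2 (0.0552) or irradiated library 1, 2 or 3 (0.19, 0.202 and 0.168), although the estimate stayed between -0.61 and -0.51 in those settings and without control 3. After correction for transcript length and GC content the estimate was -0.21 (adjusted p = 0.338), and the transcript of Pold2 has a GC content of 58.8%, against a median of 48.9% for the members. Pold1, the catalytic subunit of polymerase delta, had an estimate of -0.30 with all irradiated values (19.5 to 21.6 FPKM) below the controls (22 to 29.2), and did not pass (adjusted p = 0.16). Pold3 measured 30.3 ± 0.729 FPKM in controls and 30.9 ± 1.02 in irradiated libraries. Pole, the catalytic subunit of polymerase epsilon, had an estimate of 0.26 (adjusted p = 0.185; -0.027 after quantile normalization and -0.0055 after the length and GC correction), and Pole2 one of 0.03.

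The 4 subunits of polymerase alpha-primase had estimates that spanned 0.42 on the log2 scale, against 0.59 to 1.27 for the other complexes of 3 or more subunits. Prim1, the catalytic primase subunit and the most abundant of the 4, measured 56.1, 56.2 and 46.1 FPKM in controls and 51.1, 48.1 and 51.3 in irradiated libraries, with overlapping groups (-0.07, adjusted p = 0.713). Prim2, the large primase subunit, had an estimate of -0.08. Pola2, the regulatory subunit, measured 22.8 to 33.04 FPKM in controls and 33.8 to 36.8 in irradiated libraries (0.34, adjusted p = 0.16), and was called higher after the length and GC correction (0.045), while trimmed-mean scaling gave an estimate of 0.18. Pola1, the catalytic subunit, measured 6.82 to 19.1 FPKM in controls and 10.2 to 12.5 in irradiated libraries, so the controls lay on both sides of the irradiated values.

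**Figure D2:**
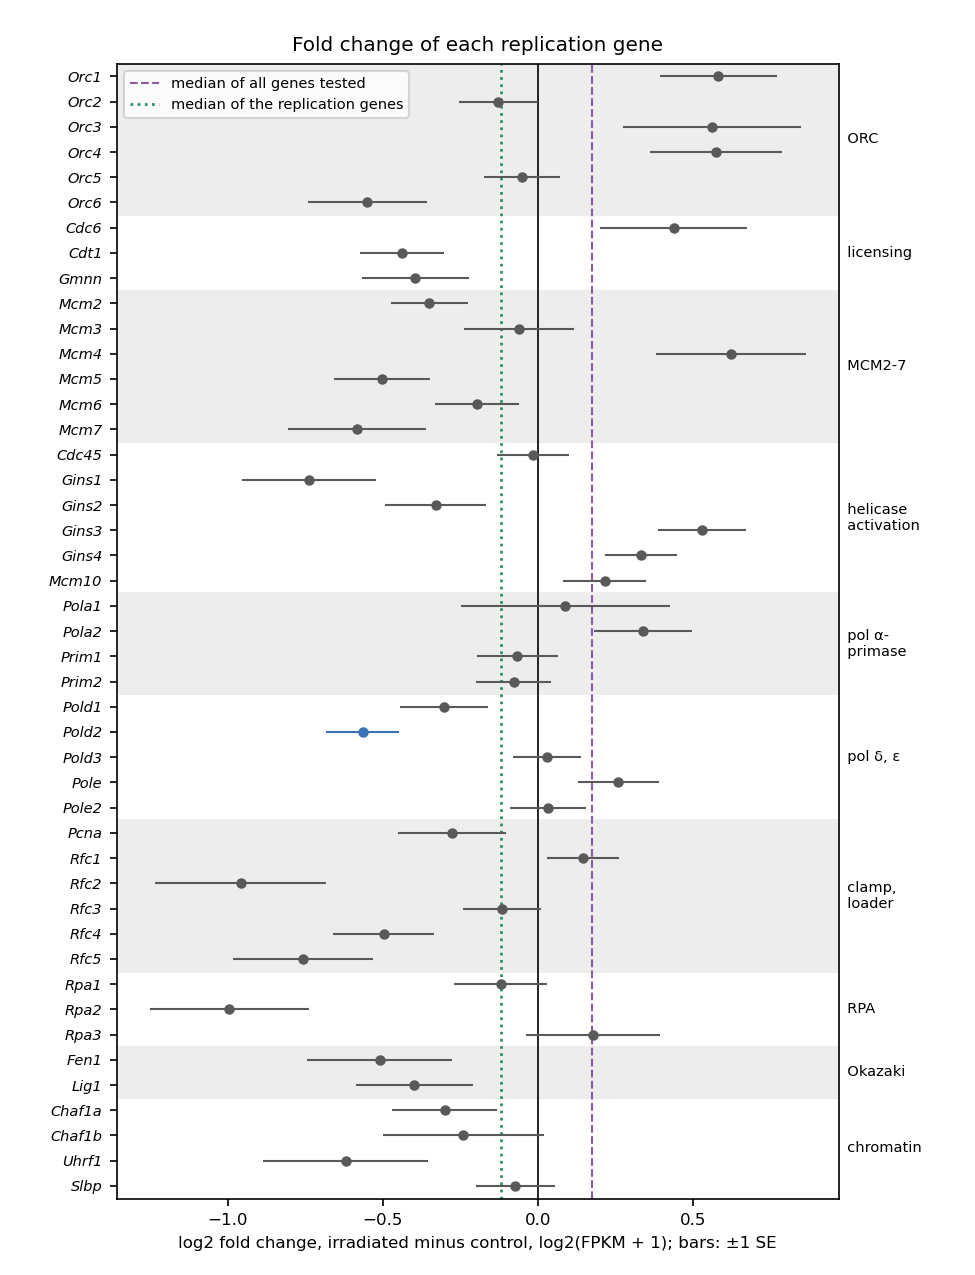
Log2 fold change of each replication gene (irradiated minus control on log2(FPKM + 1), bars ±1 SE, n = 3 per group), with Pold2, the called member, in blue. The dotted line marks the members' median (-0.12) and the dashed line the median of all genes tested (0.17); subunits of ORC, MCM2-7 and GINS lie on both sides of 0.

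The sliding clamp and its loader were mostly estimated lower in irradiated cells, without a call. An unadjusted p below 0.05 was found for 3 of 6, against 38.3% of all genes tested. Pcna, which encodes the clamp, was the most abundant member, at 434, 304 and 344 FPKM in controls and 303, 271 and 310.5 in irradiated libraries. Control 2 lay within the irradiated range, and the estimate of -0.28 (SE 0.17, adjusted p = 0.262) was 0.026 after quantile normalization. Rfc2, a small subunit of the clamp loader RFC, measured 99.3, 122 and 56.3 FPKM in controls and 44.98, 44.4 and 45.2 in irradiated libraries. Its irradiated values lay within 1 FPKM of one another and below control 3, which itself was far below controls 1 and 2 (-0.96, SE 0.28, adjusted p = 0.0631). Rfc5 followed the same order, with 42.9, 42.5 and 24.7 FPKM in controls and 20.01, 20.1 and 22 in irradiated libraries (-0.76, SE 0.23, adjusted p = 0.067). Rfc4 measured 48.2, 51.6 and 36.5 FPKM in controls and 31.2, 29.2 and 34.4 in irradiated libraries, again without overlap (-0.50, adjusted p = 0.0801). Rfc3 had overlapping groups (-0.12). Rfc1, the large subunit that RFC does not share with other clamp loaders, measured 20 to 22.4 FPKM in controls and 23.02 to 24.3 in irradiated libraries (0.15; -0.0059 after trimmed-mean scaling and -0.070 after the length and GC correction).

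RPA, the heterotrimer that binds single-stranded DNA, held Rpa2, whose estimate was larger in size than those of the other members with all libraries and no correction, by a margin under its SE to Rfc2; after the length and GC correction that of Rfc2 was larger (-1.14 against -0.81). Rpa2, its middle subunit and a substrate of damage kinases (NCBI gene 19891, chromosome 4, 132768360 to 132778746), measured 49.97, 58.9 and 29.1 FPKM in controls and 21.03, 20.8 and 23.2 in irradiated libraries. All irradiated values lay below control 3, and control 3 lay below controls 1 and 2 (-0.995, SE 0.26, adjusted p = 0.0512). Rpa2 was called lower after quantile normalization (adjusted p = 0.0444), without the trend and robust options (0.0483) and after the length and GC correction (0.0376), in a range of 6.47e-05 to 0.209. Rpa1, the large subunit that makes the main DNA contacts and the most abundant of the 3, measured 66.8, 57.9 and 79.6 FPKM in controls and 62.5, 59.1 and 64.5 in irradiated libraries (-0.12, adjusted p = 0.558). Rpa3 had an estimate of 0.18 and overlapping groups.

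The remaining members, apart from Slbp, act behind the fork. Lig1, the ligase that seals Okazaki fragments, measured 72.4, 89.8 and 55.8 FPKM in controls and 53.8, 50.5 and 57.5 in irradiated libraries, with control 3 within the irradiated range (-0.40, adjusted p = 0.164). Fen1, the flap endonuclease of the same step, had an estimate of -0.51 (adjusted p = 0.154). Uhrf1, which recruits the maintenance DNA methyltransferase to hemimethylated DNA, measured 91.2, 104 and 51.9 FPKM in controls and 51.4, 45.6 and 56.8 in irradiated libraries. Its groups overlapped through control 3 (-0.62, SE 0.27, adjusted p = 0.135). Chaf1a and Chaf1b, subunits of the histone chaperone CAF-1, had estimates of -0.30 and -0.24, and Slbp, which binds the stem-loop of histone mRNAs, one of -0.07 (0.0063 after quantile normalization and 0.035 after the length and GC correction). All 4 chromatin genes had groups that overlapped. Over the whole list the groups did not overlap for 22 members, 12 lower and 10 higher in irradiated libraries, against 45.4% of all genes tested, 13.7% lower and 31.8% higher.

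Ratios between subunits of a complex within 1 library are unaffected by multiplying the library by 1 factor, and they are given for the subunit with the highest and the one with the lowest estimate of each complex. Because the pairs were chosen by their fold changes, the ratios are a description. Adjustments that act on genes unequally do move such pairs: after quantile normalization the estimates were 0.22 for Orc1 and -0.45 for Orc6, and after the length and GC correction -0.044 for Pold3 and -0.21 for Pold2. The ratio of Gins3 to Gins1 was 0.213, 0.213 and 0.293 in controls 1 to 3 and 0.640, 0.561 and 0.629 in irradiated libraries 1 to 3, 2.57-fold higher by the geometric mean, with control 3 closest to the irradiated values. For Orc1 over Orc6 it was 0.0919, 0.0584 and 0.0982 in controls and 0.181, 0.189 and 0.197 in irradiated libraries. For Mcm4 over Mcm7 it was 0.295, 0.152 and 0.507 in controls and 0.661, 0.662 and 0.664 in irradiated libraries. The irradiated libraries gave nearly the same Mcm4 to Mcm7 ratio, while the controls were spread over a wide range. The ratio of Rpa3 to Rpa2 was 1.01, 0.592 and 2.16 in controls and 2.53, 2.55 and 2.48 in irradiated libraries, and that of Rfc1 to Rfc2 was 0.212, 0.164 and 0.399 and 0.540, 0.522 and 0.509. Pold3 over Pold2 had tight controls, at 0.428, 0.468 and 0.508, against 0.700, 0.699 and 0.733. These pairs, and Pola2 over Prim2, had groups that did not overlap, while Pole over Pole2 and Chaf1b over Chaf1a overlapped.

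**Figure D3:**
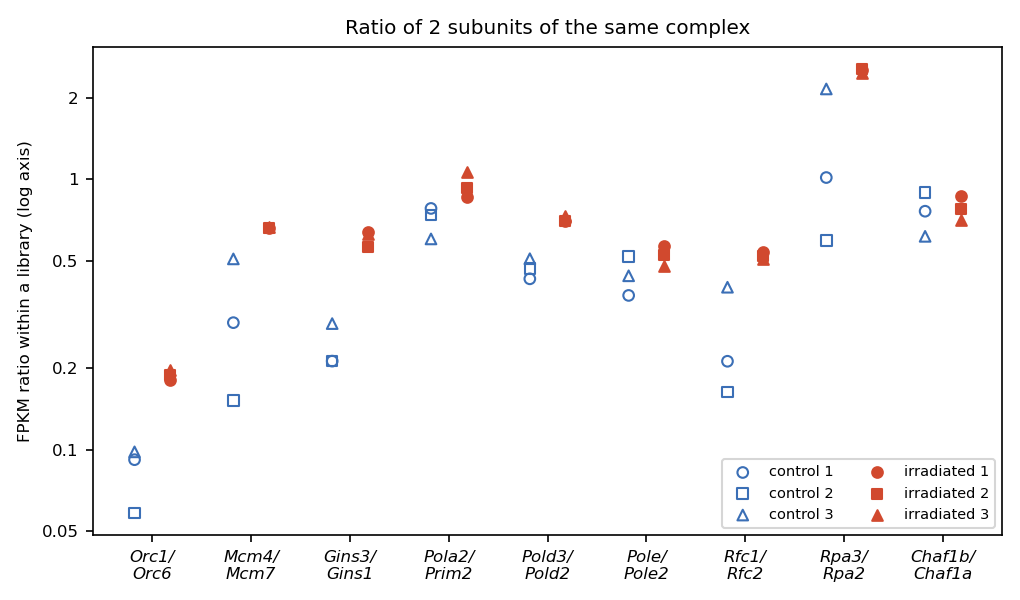
Ratio of the FPKM of 2 subunits of the same complex in each library (log axis), for the subunits with the highest and lowest fold change, control libraries in open blue and irradiated libraries in filled red. The Gins3 to Gins1 ratio is 0.213 to 0.293 in controls and 0.561 to 0.640 in irradiated libraries, and control 3 is the control nearest to them.

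Among the members, the estimates moved with the GC content of the transcripts and only weakly with their length. Across the 45 members the log2 fold change had a Spearman rho of -0.45 with the GC content of the transcript and 0.19 with its length, and across the 10930 genes tested with a known length the values were -0.26 and 0.43. These correlations are across genes that share the same 6 libraries, and are a description. The 3 members of highest GC content, Pold1, Cdt1 and Pold2 (60.7%, 58.8% and 58.8%), had estimates of -0.30, -0.44 and -0.57, and the 3 of lowest, Orc4, Rpa3 and Pola1 (36.8%, 40.5% and 41.5%), 0.57, 0.18 and 0.09. Other members lay off this order: Rfc4, Orc6 and Gins1 had estimates of -0.50, -0.55 and -0.74 at 43.5%, 45.4% and 46.9% GC, and Pola2 one of 0.34 at 54.7%. After each library's trend with length and GC had been removed, 4 members were called, Mcm5 and Rpa2 lower and Gins3 and Pola2 higher, of 16.8% of all genes, and the members' median was -0.10 against 0.15 for all genes. Of the 16 members with E2F letters in a promoter window, 9 had estimates below 0 (median -0.09), as did 16 of the 21 without them (median -0.13), and this split was not tested. Of all genes tested, 37.2% had estimates below 0.

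**Figure D4:**
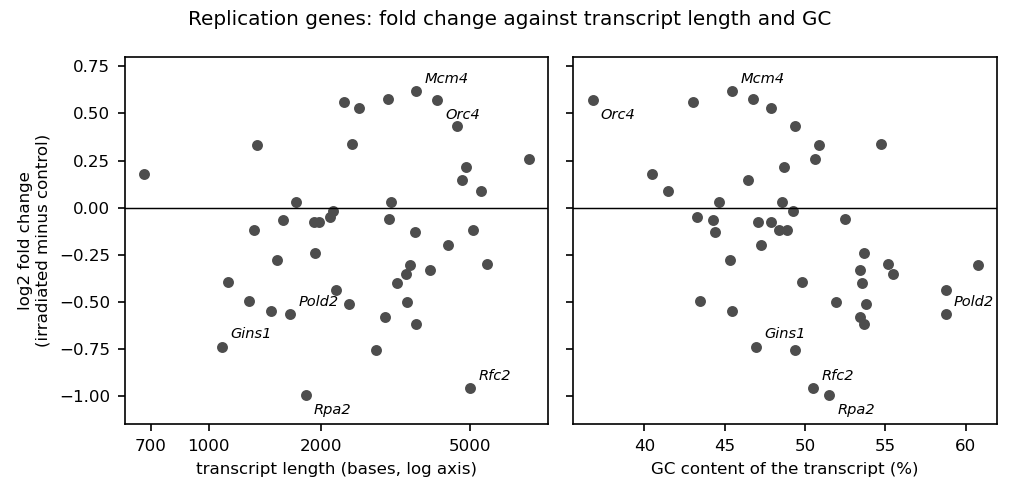
Log2 fold change of the 45 replication genes (irradiated minus control) against transcript length in bases (left, log axis) and GC content of the transcript in percent (right); each point is 1 gene. Members with a higher GC content tend to lie lower (rho -0.45), and the relation with length is weaker (rho 0.19).

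A second list held 43 other genes of DNA replication: firing factors, fork protection, accessory polymerase subunits, alternative clamp loaders, primer removal and chromatin copying. All 43 were tested, and 1 was called, Rnaseh2a, lower in irradiated cells, against 12% of all genes tested called in either direction (2.77% lower). Rnaseh2a encodes the catalytic subunit of RNase H2, which removes ribonucleotides from DNA, and measured 68.9, 83.8 and 57.01 FPKM in controls and 39.1, 35.8 and 36.5 in irradiated libraries (-0.88, SE 0.16, limma adjusted p = 0.0254). Its call was lost without control 1 (adjusted p = 0.118) and without irradiated library 1, 2 or 3 (0.157, 0.185 and 0.152), where its estimate was -0.88, -0.91, -0.85 and -0.87, and with the replicate block (0.0734). The other subunits of the enzyme, Rnaseh2b and Rnaseh2c, had estimates of -0.72 and -0.97 and did not pass (adjusted p = 0.0793 and 0.0969). Lrwd1, which stabilises ORC on chromatin, measured 27.1, 26.8 and 20.5 FPKM in controls and 15.99, 16.8 and 16.2 in irradiated libraries, and missed the threshold narrowly (adjusted p = 0.0511). It was called lower after quantile normalization (0.0354), trimmed-mean scaling (0.0466) and the length and GC correction (0.0435) and without trend and robust options (0.0497). Its adjusted p was 0.105 with the replicate block, and 0.181 and 0.103 without control 1 or 2. Without irradiated library 1, 2 or 3 it was 0.217, 0.209 and 0.188, and without control 3 it was 0.000379. Recql4, a helicase of origin firing, measured 18.6, 21.2 and 16.2 FPKM in controls and 12.8, 11.8 and 13.2 in irradiated libraries (adjusted p = 0.0542). It was called lower after quantile normalization (0.0348), trimmed-mean scaling (0.0492) and the length and GC correction (0.0336). With the replicate block its adjusted p was 0.121, and without control 1 or 2 it was 0.176 and 0.103. Without irradiated library 1, 2 or 3 it was 0.217, 0.223 and 0.181, and without control 3 it was 0.00125. The list's median was -0.01, and 23 of its estimates (53.5%) lay below 0. For all genes tested the median was 0.17, and 37.2% lay below 0. Of 7 reference genes of S phase and cycling, 4 had estimates above 0 and 3 below it, with a median of 0.22. Limma called 1 of them, Tk1, the thymidine kinase of S phase, which was lower at 63.5 ± 2.89 FPKM against 145 ± 47.4 in controls (SD, n = 3 each; adjusted p = 0.0437). Ccne2, a cyclin of the G1/S transition, had the largest estimate in size of the 7 (1.52, SE 0.57, adjusted p = 0.106), at 5.51, 1.08 and 10.2 FPKM in controls and 12.3, 14.5 and 16.4 in irradiated libraries, all above the controls. The estimates of Ccne1, Mki67 and Rrm2 were 0.32, 0.26 and 0.22, and those of Ccna2 and E2f1 -0.19 and -0.03, none of them called.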

How the data were processed

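RNA of 6 SCC7 samples (3 control, 3 irradiated) was sequenced after ribosomal RNA had been depleted, per the labels' protocols. The deposited values are the authors' FPKM per gene, per the file headers, given to 2 decimals. HISAT and GRCm38.p6 come from the submitters' processing notes; how fragments were counted is not given in the sources used here. FPKM keeps no read number, so the depth and the precision it gives are unknown. The 11103 genes that reached 1 FPKM in 3 or more samples were tested on log2(FPKM + 1) by limma 3.58.1 (R 4.3.3) with group as the only term, eBayes with trend and robust options, Benjamini-Hochberg adjustment and a threshold of 0.05. This scale understates the fold change of low genes. The procedure was tested on simulated data drawn with 1 SD per gene for both groups. That test does not cover the unequal spread of the groups or the position of control 3.

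Coordinates and promoter windows are from RefSeq and the length and GC content of each gene's longest coding transcript from GENCODE M21, both on GRCm38. Values in every sample are given for called members, the 12 members with the smallest p and the most abundant member of each of 10 role groups, and in the second list for called genes and the 3 with the smallest p. Other genes appear by ranges, means or estimates, some chosen after their values were seen; Mbd5 and Ccne2, chosen in that way, are given in every sample. Members and lists were chosen with earlier results of these data known. Alternatives covered scaling (quantile; a trimmed mean with 0.3 removed from each end), the filter (none; 5 FPKM), the pseudocount (0.1), eBayes without either option, a block for the sample number, and each sample left out. A correction for length and GC (splines, 4 degrees of freedom) was chosen after seeing the data.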

Additional observations from a re-analysis of the deposited data

How the results depend on the processing

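The number of called genes and members depended on the libraries included. Leaving out 1 library gave 56 to 7638 called genes (1334 with all 6) and 0 to 26 called members, with member medians of -0.21 to -0.07; the highest counts came without control 3. Called members numbered 2 after quantile normalization (Rpa2 and Pold2) and 2 after trimmed-mean scaling (Mcm5 and Pold2, member median -0.28). They numbered 3 without trend and robust options, and 4 after the length and GC correction. The shares of all genes called in these settings were 11.2%, 10.4%, 13.8% and 16.8%. With the filter at 5 FPKM, 727 genes were called. Higher and lower calls among all genes were 1026 and 308, but 645 and 601 after quantile normalization and 717 and 434 after trimmed-mean scaling. With a replicate block for the sample number, 12 members had an unadjusted p below 0.05, a share that was not computed for all genes. At the adjusted threshold, the limma fit with this block called 300 genes (2.7% of all genes tested) and 0 members (Pold2 adjusted p = 0.0945). This pairing rests on the numbers alone: deviations from the group means correlated at -0.11, 0.02 and -0.16 for samples numbered 1, 2 and 3, and no sample correlated best with its own number. Of 630 member estimates under alternatives, 29 changed sign, all of members not called with all libraries. These were, after quantile normalization, Mcm10 (-0.0099), Pola1 (-0.23), Pold3 (-0.021), Pole (-0.027), Pole2 (-0.098), Pcna (0.026) and Slbp (0.0063); after trimmed-mean scaling, Pola1 (-0.055), Pold3 (-0.12), Pole2 (-0.12) and Rfc1 (-0.0059); after the length and GC correction, Cdc45 (0.065), Pola1 (-0.21), Prim1 (0.085), Prim2 (0.022), Pold3 (-0.044), Pole (-0.0055), Rfc1 (-0.070), Rfc3 (0.12) and Slbp (0.035). With 1 library left out, Mcm3 ranged over -0.22 to 0.043, Cdc45 over -0.054 to 0.025, Pola1 over -0.21 to 0.47, Pole2 over -0.019 to 0.089 and Rpa3 over -0.049 to 0.37. The causes were not tested.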

Other observations

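Several replication genes share a start region with a gene on the opposite strand. By RefSeq starts, 9 of the 37 members with a promoter window have a divergent neighbour in the table whose start lies within 500 bases. Among them are Orc3 with Rars2 (15 bases apart), Rpa1 with Smyd4 (50) and Mcm7 with Ap4m1 (138). The remaining members could not be searched, and the share among all genes was not computed. Of the 9 neighbours, Mbd5, whose start lies 241 bases from one of Orc4, was called higher in irradiated cells (log2 fold change 1.30, limma adjusted p = 0.0422), at 1.12, 0.96 and 3.31 FPKM in controls 1 to 3 and 5.62, 5.31 and 5.40 in irradiated libraries. Among all genes tested, 12% were called in either direction and 9.24% higher, so 1 call in 9 neighbours is near that share. Orc4 itself had an estimate of 0.57 and was not called. Neighbours of other members with larger estimates were close to 0: Ap4m1 had -0.05 beside -0.58 for Mcm7, Tmem258 had -0.01 beside -0.51 for Fen1, and Prpf38a had -0.01 beside 0.58 for Orc1. Smyd4 had an estimate of -0.49 (adjusted p = 0.0932) beside -0.12 for Rpa1. The differences between neighbours were not tested.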
